A study of Homo sapiens with 8 samples.

Results

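PAN2-PAN3, PARN and the BTG/TOB proteins act on the poly(A) tail of mRNAs. They were described here as the 8 genes PAN2, PAN3, PARN, TOB1, TOB2, BTG1, BTG2 and BTG3. These were picked by gene symbol, with earlier results of these data known. All 8 were found among the 10105 genes of the count table. They were measured in HEK293T, an established line derived from human embryonic kidney. WT cells and XRN1-null cells of this line were plated on dishes of 15 cm and harvested after 24 h. The XRN1-null cells carry a Cas9-induced frameshifting deletion in exon 6 of XRN1. No other treatment is given in the sources used here. The XRN1-null line was made with 1 guide RNA, and the number of clones behind it is not given in the sources used here, so the genotype and any property of the particular line cannot be told apart. Each of the 2 genotypes was measured by RNA-Seq (mRNA abundance) and by Ribo-Seq (ribosome-protected fragments, RPF) in 2 biological replicates, 8 libraries in all.

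Deadenylation is the usual first step of cytoplasmic mRNA decay. PAN2 is a nuclease that forms a complex with PAN3, a pseudokinase that binds poly(A)-binding protein and brings PAN2 to the tail; this complex trims long tails, and the CCR4-NOT complex then removes the rest. PARN is a separate deadenylase that prefers capped RNA and is known above all for maturing small non-coding RNAs, telomerase RNA among them. TOB and BTG proteins are small antiproliferative adaptors without nuclease activity whose conserved N-terminal domain binds the CAF1 nucleases CNOT7 and CNOT8. TOB1 and TOB2 also bind poly(A)-binding protein through motifs in their C-terminal part. XRN1 acts after these enzymes, on mRNAs that have lost both tail and cap.

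The members sit on 8 separate genomic positions of GRCh37, whose coordinates are those of hg19. PAN2 spans chr12:56710007-56727837, with 26 exons and a coding sequence of 3594 nt in its reference transcript. PAN3 spans chr13:28712643-28869472, with 19 exons and 2661 coding nt, and PARN spans chr16:14529557-14726585, with 24 exons and 1917 coding nt. TOB1 (chr17:48939584-48945339) and TOB2 (chr22:41829498-41842805) each have a coding sequence that lies in 1 exon, of 1035 and 1032 nt. BTG1 (chr12:92534054-92539622) and BTG2 (chr1:203274619-203278730) have 2 coding exons each and the shortest coding sequences, 513 and 474 nt, whereas BTG3 (chr21:18965971-18985263) has 4 coding exons and 756 nt. The median over the genes of the table with a reference transcript was 1362 coding nt. Some exons are shared with other annotated genes: those of PAN2, TOB1, BTG1 and BTG3 overlap non-coding genes transcribed in the opposite direction, and those of BTG1 also overlap LINC01619 on its own strand. TOB2, BTG1 and BTG3 have a pseudogene each that bears their name. Whether the counting used strand is not given in the sources used here, so reads of these genes and of their antisense partners cannot be told apart.

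Since footprints depend on initiation, the start codon contexts are shown first, from 6 bases before the start codon to 1 base after it, with the start codon in capitals:
PAN2 (chr12:56726875-56726884, minus strand): gtcatcATGa
PAN3 (chr13:28712789-28712798, plus strand): gttgccATGa
PARN (chr16:14723979-14723988, minus strand): tgcagaATGg
TOB1 (chr17:48941375-48941384, minus strand): gcagctATGc
TOB2 (chr22:41833346-41833355, minus strand): aggaccATGc
BTG1 (chr12:92539308-92539317, minus strand): gcccccATGc
BTG2 (chr1:203274729-203274738, plus strand): cgcgacATGa
BTG3 (chr21:18981459-18981468, minus strand): aaaaaaATGa

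A purine 3 bases before the start codon and a G just after it are the main features of the context favoured by scanning ribosomes. Of the members, 7 had the purine, which was present in 87.9% of the 9260 genes of the table with such a context, and BTG1 had a C there. PARN was the 1 member with the G, which 55% of genes had. Upstream of the start codon, BTG1 had 3 further ATG triplets in a leader of 311 nt, PAN2 had 2 in 253 nt, and PAN3 and TOB1 had 1 each, in 113 and 443 nt. The leaders of PARN, TOB2, BTG2 and BTG3 had none, and 37.5% of all genes had at least 1.

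The members' 3′ untranslated regions were searched on the transcript strand for ATTTA, the core of AU-rich elements, which mark short-lived mRNAs, with overlapping matches counted. ATTTA occurred 11 times in the 2813 nt of PAN3 and 4 times in the 757 nt of TOB1. As many occurred in 17.3% and 13.3%, respectively, of genes whose region was within 20% of the same length. BTG3 had 3 in 440 nt, a number reached by 8.04% of genes of like length. TOB2 had 3, BTG1 had 5 and BTG2 had 2 in longer regions (2817, 3802 and 2164 nt), with medians of 6, 8 and 5 in genes of like length. PAN2 and PARN had 2 each. Any bearing of these motifs on the levels below was not tested. The first stretch with 2 ATTTA close together is shown for PAN3 and TOB1, the members that had one, with ATTTA in capitals:
PAN3 (chr13:28866877-28866892, plus strand): ATTTAttttagATTTA
TOB1 (chr17:48940016-48940025, minus strand): ATTTAATTTA

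The library totals ranged from 33757487 to 38145433 counts in RNA-Seq and from 1921641 to 4399542 in Ribo-Seq. Counts were scaled within each assay to CPM (counts per 1000000 of the TMM-scaled total). Members had 1068 to 2681 counts per RNA-Seq library but only 16 to 305 counts per Ribo-Seq library. With RNA-Seq thinned to totals like those of Ribo-Seq, 3222 genes and 2 members were still called in RNA-Seq, against 179 genes and 0 members in Ribo-Seq. As a check of the labels, XRN1 had 33.5 and 33.0 CPM in the WT RNA-Seq libraries and 282 and 253 CPM in the XRN1-null ones. Its footprints were at 34.4 and 49.8 CPM in WT cells and at 22.6 and 18.4 CPM in XRN1-null cells. XRN1 mRNA was thus higher and its footprints lower in both XRN1-null libraries (log2 fold change −1.08 in footprints, FDR = 0.00641 from edgeR, not called), and gene counts do not show the deletion itself. Of 7 HEK293T markers, 5 were in the table (PAX2 and LHX1 were absent), as were none of 4 leukocyte, 3 hepatocyte and 3 erythroid markers and 1 of 4 fibroblast markers, COL1A1, at 13.9 to 37.3 CPM.

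Per kb of gene length, BTG3 had the highest mRNA level of the members in WT cells, 36.6 ± 1.58 CPM per kb (SD, n = 2), above 76.8% of all genes. PARN (18.9 ± 1.96), TOB1 (18.5 ± 0.00133) and TOB2 (16.8 ± 0.349) followed near the median of all genes, which was 15 CPM per kb. PARN and TOB1 overlapped in their replicates. BTG2 (12.8 ± 0.242) and BTG1 (12.6 ± 0.723) overlapped too. The lowest mRNA levels were those of PAN3, 8.13 ± 0.154, and PAN2, 6.22 ± 0.331 CPM per kb, the latter above 21.3% of genes. PAN3 and PAN2 mRNA did not overlap.

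The order of the footprint levels was another one. Per coding kb, BTG1 led in WT cells with 89.1 ± 1.84 CPM (SD, n = 2), ahead of BTG3 with 80.5 ± 8.61 and TOB1 with 50.4 ± 7.21. PARN (24.4 ± 3.42), TOB2 (23.9 ± 2.62) and BTG2 (20.2 ± 3.67) lay close to each other and below the median of 26.3, and PARN and TOB2 as well as TOB2 and BTG2 overlapped. PAN2, at 7.99 ± 0.636, and PAN3, at 6.63 ± 0.588, were again lowest, but PAN2 now exceeded PAN3 in both libraries. Both subunits of the PAN2-PAN3 complex thus had fewer footprints per coding kb than PARN in every WT library.

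The ratio of footprints per coding kb to mRNA per kb also differed between these genes. The lengths used differ, so the ratio depends on gene structure too: BTG1 has 513 coding nt in a gene length of 4680 nt. Where on the mRNA the footprints lay was not tested. The ratio has no absolute scale because each assay is scaled on its own. Its range below is that of the 4 combinations of a Ribo-Seq and an RNA-Seq library of the genotype. BTG1 had a ratio of 7.08 (range 6.70 to 7.49) in WT cells, higher than 95.7% of genes. TOB1 followed with 2.73 (2.45 to 3) and BTG3 with 2.20 (1.97 to 2.44). BTG2, at 1.57 (1.35 to 1.8), and TOB2, at 1.42 (1.29 to 1.55), were below the median of all genes, 1.78. The nucleases had low ratios, with 1.29 (1.09 to 1.53) for PARN and 1.28 (1.17 to 1.41) for PAN2, and PAN3 had the lowest, 0.816 (0.755 to 0.879), higher than 12.9% of genes. In XRN1-null cells BTG1 and PAN3 still marked the ends of the order, at 7.60 (7.20 to 8.03) and 0.728 (0.664 to 0.794). Within the paralog pairs, BTG1 exceeded BTG2 and TOB1 exceeded TOB2 in every combination of libraries of either genotype.

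**Figure D1:**
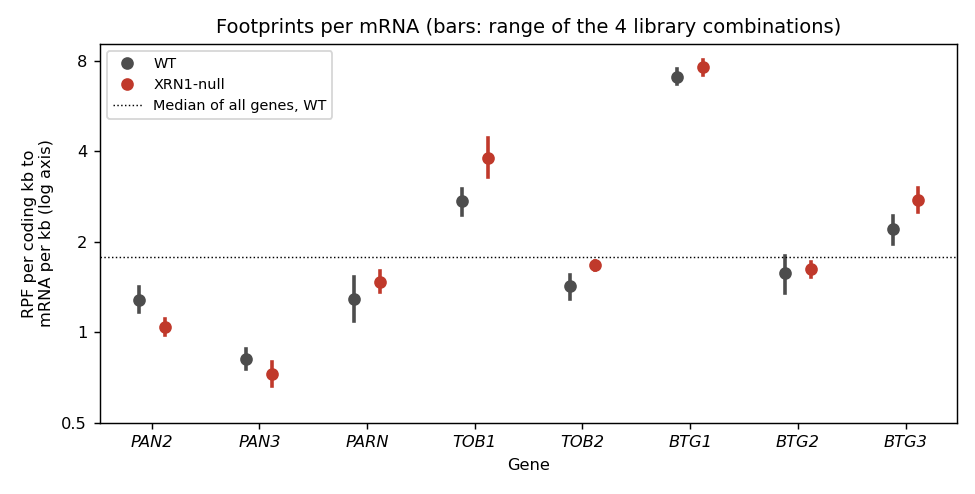
Ratio of footprints per coding kb to mRNA per kb (log axis) for each gene in WT (grey) and XRN1-null (red) cells. Points are ratios of the group means, bars the range of the 4 combinations of libraries, and the dotted line is the WT median of all genes; BTG1 lies highest at 7.08 in WT cells and PAN3 lowest at 0.816.

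The first comparison asked whether mRNA levels of these genes differ in the absence of XRN1. PAN3 mRNA rose, PARN and TOB2 mRNA fell, and the other 5 members did not pass the FDR threshold of 0.005. The 1 rise compares with 22.9% of all genes called higher, and the 2 falls with 23.2% called lower, so that 3 of 8 members were called against 46.1% of all genes. At an FDR of 0.05, 5 members passed (67.1% of all genes), as did 5 at an unadjusted p below 0.05 (69.9% of all genes). The median log2 fold change was −0.15 over the members and −0.01 over all genes, and the median absolute change was 0.28 against 0.34. XRN1-null and WT libraries did not overlap for 7 of the 8 members, 3 higher and 4 lower, as was the case for 84.7% of all genes (41.0% higher and 43.7% lower).

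Among the nucleases and their partner, PAN3 mRNA was at 45.1 and 46.4 CPM in the WT libraries and at 64.6 and 61.5 CPM in the XRN1-null libraries. Both XRN1-null libraries were above both WT libraries, a 1.38-fold level (log2 fold change 0.46 with a standard error of 0.0642; FDR = 0.000526 by quasi-likelihood in edgeR, Benjamini-Hochberg adjusted). For PAN2, the catalytic partner, the levels were 35.9 and 33.3 CPM in WT and 37.4 and 40.4 CPM in XRN1-null cells. These groups did not overlap, but the log2 fold change of 0.17 (95% interval −0.01 to 0.35) did not pass the threshold (FDR = 0.0871). PARN had 53.9 and 62.5 CPM in WT libraries and 40.0 and 42.5 CPM in XRN1-null libraries. Its mRNA was lower in both XRN1-null libraries, at a 0.709-fold level (log2 fold change −0.50, standard error 0.0855, FDR = 0.00153). In these bulk samples, fewer cells with an mRNA and less of it per cell cannot be told apart. The study describes its RNA-Seq as blind to RNA without a poly(A) tail, so a lower level of an mRNA and the loss of its tail cannot be told apart either. With XRN1-null replicate 1 of RNA-Seq left out, which leaves 1 library in that group, the changes were 0.43 for PAN3 (FDR = 0.00811 from edgeR) and −0.45 for PARN (FDR = 0.0113), and neither passed. Within 1 assay, a fit without 1 library takes the spread from the other genotype's pair alone. The WT pair was the more variable in both assays (chi-square per degree of freedom 24 against 3.84 in RNA-Seq and 7.77 against 2.02 in Ribo-Seq). How far this bears on calls lost or gained with a library left out was not tested.

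Of the adaptors, TOB2 had 75.7 and 78.0 CPM in the WT RNA-Seq libraries and 55.6 CPM in each of the XRN1-null libraries. TOB2 mRNA thus fell to a 0.724-fold level, without overlap (log2 fold change −0.47, standard error 0.0616; edgeR FDR = 0.000416). The call was lost with either XRN1-null replicate left out (FDR = 0.00714 without replicate 1 and 0.00735 without replicate 2, at unchanged size), and when the RNA-Seq counts were thinned down to Ribo-Seq depth (log2 fold change −0.33, FDR = 0.0182). TOB1 mRNA, by contrast, had 46.5 CPM in each WT library and 47.6 and 56.2 CPM in the XRN1-null libraries, a log2 fold change of 0.16 (95% interval −0.05 to 0.36, FDR = 0.144).

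BTG1 mRNA showed the smallest difference, with 61.3 and 56.5 CPM in WT and 55.0 and 59.4 CPM in XRN1-null cells. These values overlapped, and the 95% interval of the log2 fold change was −0.21 to 0.13. BTG2, a p53 target gene, had 34.3 and 35.3 CPM in WT libraries and 28.2 and 29.7 CPM in XRN1-null libraries. Both XRN1-null values were lower, but the log2 fold change of −0.26 (standard error 0.0724) had an FDR of 0.0135 in edgeR and was not called. With 1 RNA-Seq library left out, the BTG2 change ranged from −0.30 to −0.23. BTG3 had 56.6 and 60.1 CPM in WT and 51.0 and 44.3 CPM in XRN1-null libraries. Its XRN1-null libraries were also both lower, by a log2 value of −0.29 (standard error 0.0835, FDR = 0.0157 from edgeR), which was not called. The BTG3 change ranged from −0.40 to −0.19 with 1 RNA-Seq library left out.

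**Figure D2:**
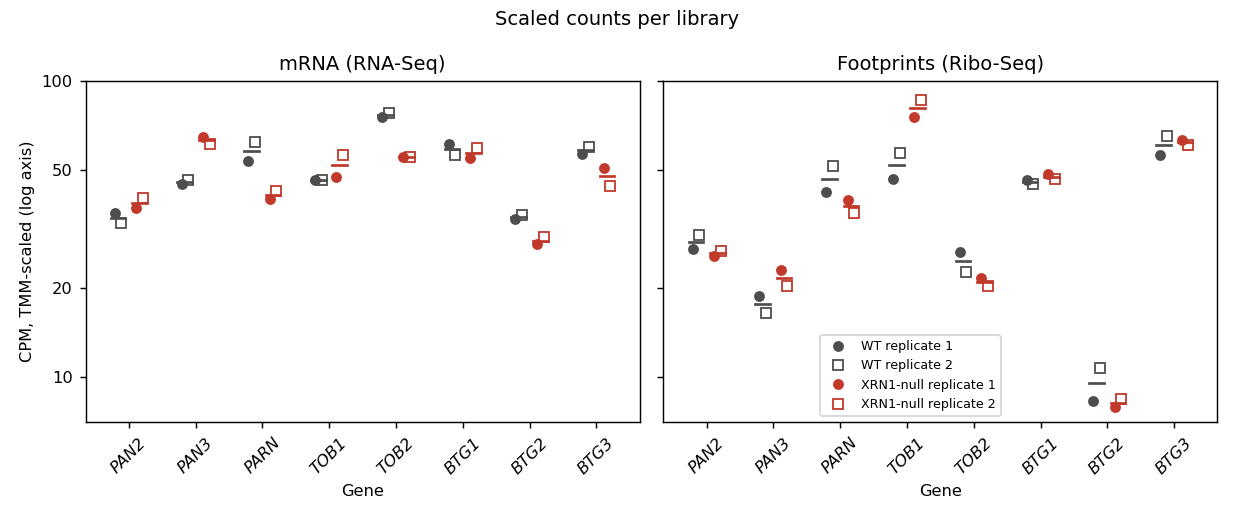
TMM-scaled CPM of each gene (log axis) in every library, with mRNA on the left and footprints on the right; circles are replicate 1, squares replicate 2, and lines are means of WT (grey) and XRN1-null (red) cells. PAN3 mRNA is higher, and PARN and TOB2 mRNA lower, in both XRN1-null libraries, and TOB1 footprints, which did not pass the threshold, are at most 57.4 CPM in WT and at least 75.7 CPM in XRN1-null libraries.

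The second comparison concerned ribosome occupancy. No member was called in Ribo-Seq by edgeR's quasi-likelihood test, where 1.77% of all genes were called. At an unadjusted p below 0.05 there was 1 member, TOB1, beside 33.0% of all genes. EdgeR's exact test called TOB1, among 1062 of the 10105 genes. DESeq2 called no member and 218 of all genes. The groups did not overlap for 6 of 8 members, 3 higher and 3 lower in XRN1-null cells, beside 64.4% of all genes (32.1% higher and 32.3% lower).

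TOB1 footprints were at 46.9 and 57.4 CPM in the WT libraries and at 75.7 and 86.5 CPM in the XRN1-null libraries. Both XRN1-null libraries were above both WT libraries, at a 1.52-fold level. The log2 value was 0.61 (standard error 0.154, 95% interval 0.27 to 0.94), the largest absolute change in footprints of the 8 genes and larger than that of 84.4% of all genes. The FDR was 0.0228 in edgeR's quasi-likelihood test, which passes 0.05, as did 15.4% of all genes, but not 0.005. Without WT replicate 1 of Ribo-Seq, the shallowest library, the change was 0.50 (FDR = 0.00194), and without WT replicate 2 it was 0.80 (FDR = 2.95e-05), both with the spread of the tighter XRN1-null pair alone. Without XRN1-null replicate 1 or 2 the changes were 0.71 (FDR = 0.0688) and 0.52 (FDR = 0.218), which pass neither 0.005 nor 0.05, with the spread of the WT pair alone. TOB2 footprints went the other way in all libraries, with 26.6 and 22.7 CPM in WT and 21.6 and 20.3 CPM in XRN1-null cells, a log2 fold change of −0.20 (95% interval −0.60 to 0.20) that did not pass the threshold.

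For PAN3, footprints were at 18.8 and 16.5 CPM in WT and at 23.1 and 20.3 CPM in XRN1-null libraries. The direction was that of the mRNA, without overlap, but the log2 fold change of 0.33 (95% interval −0.09 to 0.76, FDR = 0.259 from edgeR) did not pass. PAN2 had 27.1 and 30.3 CPM in WT and 25.6 and 26.8 CPM in XRN1-null libraries, so its footprints were lower where its mRNA was higher (log2 fold change −0.15, 95% interval −0.52 to 0.21). PARN footprints, at 42.2 and 51.5 CPM in WT and 39.7 and 35.9 CPM in XRN1-null libraries, had the lower direction of its mRNA (log2 fold change −0.33, 95% interval −0.68 to 0.02, FDR = 0.170).

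None of the BTG genes passed the threshold in footprints. BTG1 had 46.4 and 45 CPM in WT and 48.4 and 46.8 CPM in XRN1-null libraries, and a 95% interval of −0.25 to 0.38 for the log2 fold change. BTG3 had 56.3 and 65.5 CPM in WT and 63.3 and 60.9 CPM in XRN1-null libraries, which overlapped (interval −0.30 to 0.33). BTG2 had the fewest footprints, 16 and 47 counts (8.33 and 10.8 CPM) in WT and 32 and 27 counts (7.95 and 8.43 CPM) in XRN1-null libraries. These overlapped, with a log2 fold change of −0.29. Its interval, −0.87 to 0.30, was the widest of the 8 and includes the log2 fold change of its mRNA.

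In the interaction model, which tests whether footprints and mRNA changed to different extents, no member was called, against 1.83% of all genes. Of the 8, TOB1 alone had an unadjusted p below 0.05 (23.3% of all genes had), none passed an FDR of 0.05 (7.48% of all genes did; TOB1 had 0.0433 with the culture block, which takes the RNA-Seq and Ribo-Seq libraries of a number and genotype as 1 pair), and neither DESeq2 nor edgeR's likelihood ratio test called any. TOB1 had the largest change in TE, with a log2 value of 0.44 (95% interval 0.07 to 0.81, FDR = 0.146 from edgeR). TOB2 and BTG3 had 0.27 (−0.09 to 0.64) and 0.30 (−0.04 to 0.63). PAN2 had the lowest, −0.33 (−0.70 to 0.04, FDR = 0.276), while PAN3, PARN, BTG1 and BTG2 lay between −0.13 and 0.15. The median over the members was 0.13, and that over all genes 0.01.

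**Figure D3:**
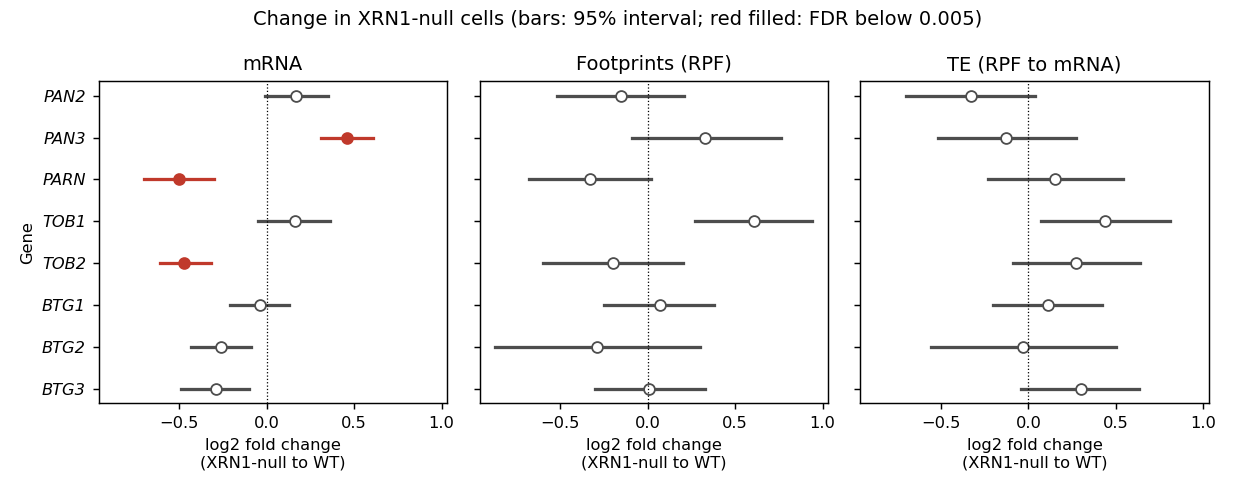
Log2 fold change of XRN1-null to WT cells for mRNA, footprints and TE of each gene, with bars for the 95% interval; red filled points passed an FDR of 0.005. PAN3 (0.46), PARN (−0.50) and TOB2 (−0.47) passed in mRNA, and the footprint interval of TOB1 (0.27 to 0.94) lies above 0.

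Ratios of partners or paralogs within a library do not depend on the scaling between libraries. With 2 libraries against 2, an exact two-sided permutation test cannot go below p = 0.333, so these ratios are given as values only. The ratio of PAN3 to PAN2 mRNA per kb was 1.24 and 1.38 in WT and 1.71 and 1.51 in XRN1-null libraries. In footprints per coding kb it was 0.935 and 0.737 in WT and 1.22 and 1.02 in XRN1-null libraries. By these values PAN3 was below PAN2 in both WT libraries and above it in both XRN1-null libraries. Footprint counts were low, at 36 and 72 (WT) and 93 and 65 (XRN1-null) for PAN3. For PAN2 they were 52 and 132 (WT) and 103 and 86 (XRN1-null). Neither gene's footprint change was called, and whether the ratios differ from 1 was not tested.

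For the TOB paralogs the genotypes were further apart. The ratio of TOB1 to TOB2 mRNA per kb was 1.11 and 1.08 in WT libraries and 1.55 and 1.83 in XRN1-null libraries. In footprints per coding kb it was 1.76 and 2.52 in WT and 3.5 and 4.25 in XRN1-null libraries. TOB1 and TOB2, which bind the same nucleases, were at similar mRNA levels per kb in WT cells, and TOB1 exceeded TOB2 in each XRN1-null library of either assay by more than in any WT library. The ratio of BTG1 to BTG2 was 1.03 and 0.928 (WT) and 1.13 and 1.16 (XRN1-null) in mRNA. In footprints it was 5.14 and 3.85 in WT and 5.63 and 5.13 in XRN1-null libraries, which overlapped.

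**Figure D4:**
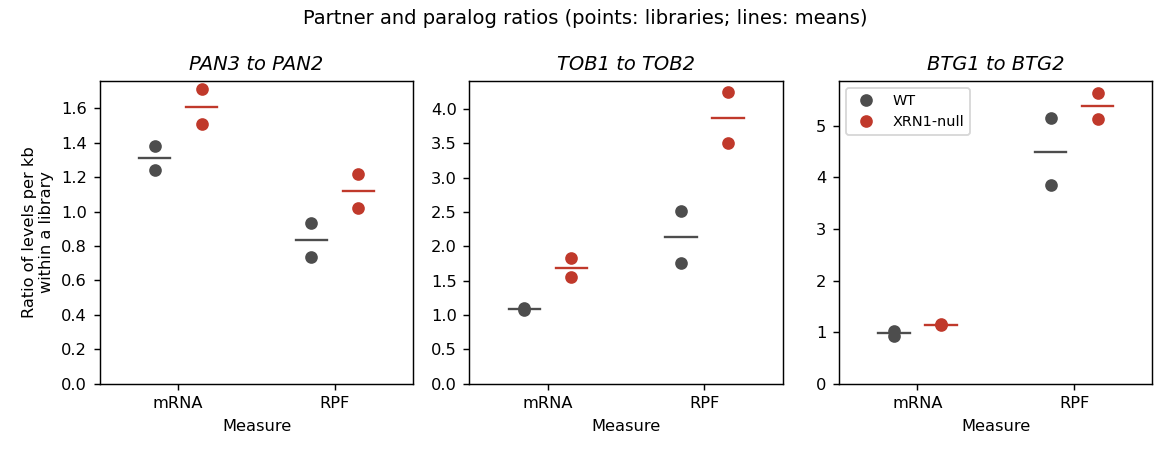
Ratios of PAN3 to PAN2, TOB1 to TOB2 and BTG1 to BTG2 levels per kb in each library, for mRNA and footprints (RPF); points are libraries and lines means of WT (grey) and XRN1-null (red) cells. The TOB1 to TOB2 footprint ratio is 2.14 ± 0.536 in WT and 3.87 ± 0.533 in XRN1-null cells (SD, n = 2).

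The genes most like each member were taken as those with the smallest Euclidean distance over the 8 libraries, on log2 (CPM + 0.5) after each gene's mean in each assay was subtracted, among 9768 genes with at least 10 counts in every library. They were SAAL1 and NUBPL for PAN2, PROS1 and CYR61 for PAN3, and CBX2 and IST1 for PARN. For the adaptors they were COL4A3BP and HES1 for TOB1, STARD7 and SOD1 for TOB2, RFFL and RRP36 for BTG1, TRIM27 and CCNK for BTG2, and TIGAR and YWHAZ for BTG3. The distances ranged from 0.0570 (TOB2 and STARD7) to 0.163 (TOB1 and HES1). No member was among the nearest genes of another. The closest were PARN and BTG2, at a distance of 0.323, where BTG2 ranked 199th from PARN, followed by PAN2 and BTG1 at 0.324.

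Of other genes of the poly(A) tail and of partners ascribed to BTG and TOB proteins, 49 from 6 lists were in the table. In RNA-Seq, 15 were called higher and 6 lower (22.9% and 23.2% of all genes). The median log2 fold change of the 49 was 0.20, beside −0.01 over all genes. In Ribo-Seq 1 was called lower and none higher (1.14% and 0.633% of all genes), with 17 of 49 at an unadjusted p below 0.05, as were 33.0% of all genes. In TE 1 was called higher and 2 lower (0.0495% and 1.78% of all genes). Leaving out single libraries moved these totals. In RNA-Seq they were 23 higher and 12 lower without WT replicate 1, 24 and 11 without WT replicate 2, 8 and 3 without XRN1-null replicate 1, and 10 and 3 without XRN1-null replicate 2. In Ribo-Seq they were 6 and 4 without WT replicate 1, 9 and 4 without WT replicate 2, 0 and 1 without XRN1-null replicate 1, and 2 and 1 without XRN1-null replicate 2. In TE, 0 to 1 were higher and 0 to 4 lower. The recruiters of deadenylases had 6 of 15 members higher and 1 lower in mRNA, against 22.9% and 23.2% of all genes. These included the Argonaute AGO3 (log2 fold change 0.73) and the RNA-binding protein RC3H1 (0.75), the 2 largest rises. Of the rises, those of TNRC6A and AGO1 were not called without XRN1-null replicate 1 (FDR = 0.0204 and 0.00561 from edgeR), and that of TNRC6A also not without replicate 2 (FDR = 0.00928). NANOS1, a translational repressor that recruits CCR4-NOT, fell from 15.3 ± 0.632 to 6.49 ± 0.0165 CPM (SD, n = 2 each; log2 fold change −1.24). Its footprints went the other way, from 28.5 ± 15 to 94.5 ± 72.2 CPM (log2 fold change 1.89, FDR = 0.0213 from edgeR; TE 3.19, FDR = 0.00766), and neither was called.

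CCR4-NOT had 3 of 11 subunits higher (CNOT2, CNOT4 and CNOT10), 1 lower (CNOT11) and 7 not called in mRNA, beside 22.9% of all genes called higher and 23.2% called lower. These counts depended on the processing, with 5 higher and 0 lower with library totals, 5 and 3 with DESeq2, 5 and 4 with edgeR's exact test or the replicate block, and 5 and 5 without either WT library. They were 3 and 0 with RNA-Seq thinned, and 2 and 0 without either XRN1-null library. The largest rises were those of CNOT10 (0.66), from 72.8 ± 6.89 to 115 ± 1.93 CPM, and of CNOT4 (0.59), a ubiquitin ligase associated with the complex. CNOT2 (0.33) was not called without XRN1-null replicate 1 (FDR = 0.0433) or 2 (FDR = 0.0307). CNOT11 (−0.33) lost its call without XRN1-null replicate 1 (FDR = 0.0724 from edgeR) or replicate 2 (FDR = 0.0256) and with scaling by library totals (FDR = 0.0071). CNOT7 and CNOT8, the nucleases to which BTG and TOB proteins bind, were not called, with log2 fold changes of −0.30 (FDR = 0.00869) and −0.22 (FDR = 0.0143) in mRNA and of −0.02 and 0.15 in footprints; they are named after their values were seen.

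Among the other deadenylases, TOE1, which trims snRNAs, was called higher in mRNA (log2 fold change 1.3, FDR = 7.36e-06 from edgeR), and PDE12, NOCT, ANGEL1 and ANGEL2 were not called. Of 9 tail polymerases and nucleotidyltransferases, PAPOLG and ZCCHC6 rose and PAPD5 fell (22.9% of all genes were called higher and 23.2% lower). There were 4 higher with library totals, DESeq2, the exact test, a minimum of 10 counts, the replicate block or without WT replicate 1, 5 without WT replicate 2, and 1 with RNA-Seq thinned or without XRN1-null replicate 1. ZCCHC6, which adds uridines to short tails, went from 19.0 ± 0.19 to 66.4 ± 1.52 CPM in mRNA (log2 fold change 1.81), PAPOLG from 24.6 ± 1.28 to 34.6 ± 2.19 CPM (0.49) and PAPD5 from 39.3 ± 1.57 to 28.2 ± 0.702 CPM (−0.48; SD, n = 2 each). PAPOLG lost its call without XRN1-null replicate 1 (FDR = 0.0151 from edgeR), and PAPD5 without XRN1-null replicate 1 (FDR = 0.0101) or 2 (FDR = 0.0057).

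All 4 poly(A)-binding proteins in the table were called in mRNA, where 46.1% of all genes were, PABPC4 (0.56) and ZC3H14 (0.34) higher and PABPC1 (−0.81) and PABPN1 (−0.40) lower. With RNA-Seq thinned, 1 was called higher and 1 lower. The calls of PABPC4, ZC3H14 and PABPN1 were each lost without XRN1-null replicate 1 (FDR = 0.00557, 0.0451 and 0.0358 from edgeR) or 2 (FDR = 0.00516, 0.0434 and 0.0163). Of 5 partners ascribed to BTG and TOB proteins, SMAD4 rose in mRNA (log2 fold change 0.82), and CCND1, the cyclin D1 gene whose expression TOB1 is known to repress, fell. CCND1 mRNA went from 57.1 ± 5.43 to 20.6 ± 1.89 CPM (log2 fold change −1.47, FDR = 2.14e-05 from edgeR). Its footprints went from 24.3 ± 2.68 to 6.79 ± 0.115 CPM (SD, n = 2 each; log2 fold change −1.86, FDR = 0.00121), the 1 gene of the 6 lists called in Ribo-Seq.

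**Figure D5:**
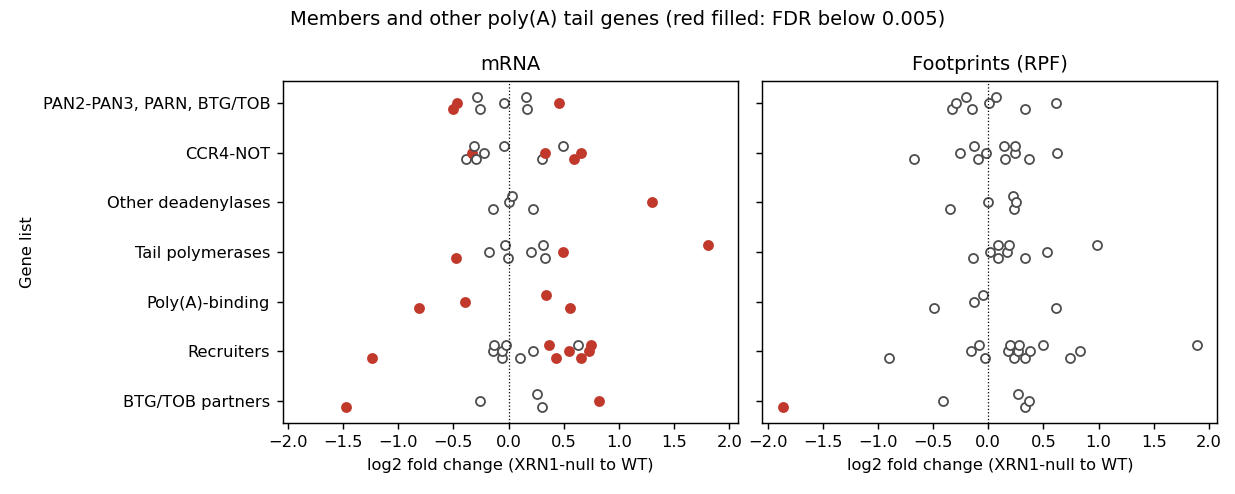
Log2 fold change of XRN1-null to WT cells in mRNA and footprints (RPF) for the 8 genes and for 6 lists of other genes. The lists hold poly(A) tail genes and partners ascribed to BTG and TOB proteins. Each point is 1 gene, and red filled points passed an FDR of 0.005. Calls in mRNA go in both directions, and CCND1 (−1.86), among the BTG/TOB partners, is the 1 gene called in footprints.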

How the data were processed

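RNA-Seq libraries, made from extracted total RNA with a TruSeq kit and described by the study as not capturing RNA without a poly(A) tail, and Ribo-Seq libraries of ribosome footprints were sequenced from WT and XRN1-null HEK293T cells, 8 in all, assigned to genotype, assay and replicate by the sample titles. The authors filtered ribosomal RNA reads with Bowtie2, mapped the rest on hg19 with TopHat2, kept footprints of 29 and 30 nt, counted reads per gene with QuasR, kept genes above an FPKM threshold and deposited raw counts with a width per gene. They also deposited fold changes, p-values and TE estimates of their own comparisons, which were not used.

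Counts were analysed with edgeR 4.0.16 (R 4.3.3), with TMM factors within each assay and the quasi-likelihood test with genotype as the only term. For TE, an assay by genotype interaction was fitted over all libraries, since RiboDiff was not run here. Genes were called at an FDR (Benjamini-Hochberg over 10105 genes) below 0.005. Each standard error is the ratio of the log2 value to the root of its F statistic, and 95% intervals use the t quantile of the same fit. DESeq2 1.42.0 was an alternative. The functions were tested on simulated counts.

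The members and lists were chosen with earlier results of these data known. Named from each list are the genes called in Ribo-Seq or TE and the 2 largest rises and falls called in mRNA; further names were added where a count was small. mRNA per kb uses the deposited width, and footprints per kb the coding length of the reference transcript in GENCODE release 44 mapped to GRCh37, known for 9288 genes (91.9%); motif shares are over the same genes. Same-numbered libraries are not stated to be prepared together, and their pairing was not used. Replicates of each group differed by more than sampling noise (chi-square per degree of freedom 2.02 to 24). No molecular identifiers are described, so the counts may hold PCR copies.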

Additional observations from a re-analysis of the deposited data

Results flagged for a closer look

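The change in footprints differed from the change in mRNA, by the interaction test of edgeR at an FDR below 0.005, for 3 genes of the lists set beside the members. PABPC1 had a log2 change in TE of 1.41 (standard error 0.236, FDR = 0.00398); leaving out single libraries gave values of 1.11 to 1.84, and only without WT replicate 1 or 2 of Ribo-Seq did it still pass. PABPC4 had −1.06 (standard error 0.177, FDR = 0.004), with a range of −1.20 to −0.83, and passed only without WT replicate 2 of RNA-Seq or WT replicate 1 of Ribo-Seq. For TOE1 the value was −1.05 (standard error 0.161, FDR = 0.00228), with a range of −1.18 to −0.92, and with 1 library left out it passed only without a WT library of RNA-Seq or WT replicate 1 of Ribo-Seq. It did not pass with RNA-Seq thinned to totals like those of Ribo-Seq (−0.97, FDR = 0.0127). PABPC1 footprints varied between the WT replicates (325 ± 112 CPM, SD, n = 2).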

How the results depend on the processing

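Of the 344 values of log2 fold change that the alternatives gave for the 8 members, 9 changed sign, and none of these belonged to a call. BTG1 mRNA was at 0.01 with library totals, and between −0.10 and 0.04 with 1 library left out. BTG2 TE was at 0.02 with the replicate block, and between −0.13 and 0.25 with 1 library left out. BTG3 footprints ranged from −0.07 to 0.16 with 1 library left out. The members called in RNA-Seq, 3 here, were 5 with edgeR's exact test and at an FDR of 0.05, 0 at an absolute log2 fold change of at least 1, and 0 to 5 with 1 library left out. In Ribo-Seq 1 member (TOB1) was called by the exact test, with the replicate block and at an FDR of 0.05, and 0 to 1 with 1 library left out. No alternative called a member in TE at an FDR of 0.005. Of the 10105 genes, edgeR's exact test called 5875 in RNA-Seq, and 6779 passed an FDR of 0.05 there in the quasi-likelihood test. Over all genes, RNA-Seq calls went from 4657 to 702 at a log2 fold change of at least 1 (2745 to 6799 with 1 library left out). Ribo-Seq calls, 179, became 297 with library totals, 1062 with the exact test, 1281 with the replicate block and 1561 at an FDR of 0.05 (156 to 2369 with 1 library left out). TE calls, 185, became 329 with DESeq2, 667 with the likelihood ratio test, 490 with the culture block and 756 at an FDR of 0.05 (19 to 235 with 1 library left out). The cause of these shifts was not tested. Same-numbered libraries had correlated deviations of 0.19 in RNA-Seq and 0.0803 in Ribo-Seq across genes, and of 0.355 (WT) and 0.0326 (XRN1-null) between the assays, a hint only; with the replicate block BTG3 mRNA (−0.30, FDR = 0.00439 from edgeR) and TOB1 footprints (0.63, FDR = 0.00106) were called. Of the nearest genes, 14 of 16 were kept with 2 CPM added before the log2. BTG2 had the fewest footprints (16 to 47 counts per library).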
